A study of Mus musculus with 3 samples.

Results

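The 3′ UTRs examined here belong to genes whose longest transcript ends in 1 uninterrupted 3′ UTR segment of at least 1000 nt. No annotated CDS or 5′ UTR segment on the same strand overlaps them. Of 20823 genes that had all 3 mRNA regions in the deposited tables, 9328 had a single segment of this length, 1829 of these overlapped a CDS or 5′ UTR and were set aside, and 7499 were kept. The choice used only annotation and no read count. The median 3′ UTR was 2093 nt long, with a range from 1000 to 122583 nt, and 7480 of the 7499 genes are annotated as protein coding.

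Footprints came from primary mouse cortical neurons in 3 states. Untreated neurons (WT) received no drug, Chx neurons were exposed to cycloheximide for 2 min, and Harr neurons were exposed to harringtonine for 2 min and then pulsed with cycloheximide. Every library, WT included, met cycloheximide at 100 μg/ml in the rinse and lysis buffers, and each was made from 3 combined 150-mm dishes, micrococcal nuclease digestion and gradient-purified monosomes. With 1 library per treatment, no difference below has a replicate check, and all intervals cover counting error only. Library totals were 35722483, 9754412 and 30219197 reads in Chx, Harr and WT, so that 3 reads correspond to 0.0840, 0.308 and 0.0993 reads per 1000000 library reads (RPM). CDS reads of 8 neuronal marker genes summed to 3824 to 5349 RPM, those of 4 astrocyte markers to 78.8 to 213, and those of 4 microglial and of 4 oligodendrocyte markers to less than 7, with Mog and Mobp at 0 in all 3 libraries.

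Translation normally ends at the stop codon, where release factors free the protein and recycling factors, ABCE1 among them, split the ribosome. Ribosomes that are not recycled can drift into the 3′ UTR, and others can read through the stop codon in frame, so 3′ UTRs usually hold few footprints. Cycloheximide arrests elongating ribosomes wherever they are, whereas harringtonine blocks ribosomes that have just initiated and lets those further along run on, which empties the CDS first. In neurons long 3′ UTRs are the binding platform for microRNAs and for proteins that guide mRNA transport and local translation.

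Some of the results below concern how far reads lie behind the stop codon. The last 12 coding bases, the stop codon in capitals and the first 15 bases of the 3′ UTR are shown for 7 genes, from the GENCODE M21 transcript sequences (build mm10). These windows show where each 3′ UTR begins and not where its reads lie. Gad1, Atp1b1, Dcx and Rtn3 had the large differences between Harr and Chx, Pkia and Gng7 had smaller ones, and the 3′ UTR of Lrrc58 held the most reads.
Gad1: ggtcaggatctgTAAtccctctttacagaa
Atp1b1: gaaattaagagcTGAtcacaagcacaaatc
Dcx: ggcgattccatgTGAaagatgataggctaa
Rtn3: aaaaaggcagaaTAAgcacgtgaagcaaga
Pkia: aagtctgaaagcTAAcactccattctgacg
Gng7: tgcataattctcTAGttctctctctttctc
Lrrc58: gtccttcttggtTGAgcagcaatgggtatt

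The 3′ UTRs that follow lie at chr2:70600797-70602014 on the plus strand for Gad1, chr1:164437109-164438275 on the minus strand for Atp1b1, and chrX:143855842-143863550 on the minus strand for Dcx. That of Rtn3 lies at chr19:7425901-7427829 on the minus strand, that of Pkia at chr3:7442091-7445366 on the plus strand, that of Gng7 at chr10:80948629-80951620 on the minus strand and that of Lrrc58 at chr16:37881463-37888858 on the plus strand.

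Long 3′ UTRs were sparsely read in every library. They held 84246, 81542 and 94756 reads in Chx, Harr and WT, or 2358, 8360 and 3136 RPM. Thus Harr, the shallowest library, held nearly as many of these reads as the others. The density of reads per nucleotide was 0.714% of that of the same genes' CDS in Chx, with a 95% counting interval of 0.709 to 0.719. It was 3.50% (3.48 to 3.52) in Harr and 0.979% (0.973 to 0.985) in WT. No read at all fell into 3924 of the 3′ UTRs in Chx, 3262 in Harr and 3346 in WT, and 2579 were empty in all 3 libraries. At the other end, 1756 had at least 20 reads in the 3 libraries together.

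The signal rested on far fewer genes in Chx and WT than in Harr. In Chx, 2 genes supplied 50% of all reads in these 3′ UTRs, against 46 genes in WT and 263 in Harr. The first was Lrrc58, which encodes a leucine-rich repeat protein. Its 3′ UTR held 40656, 2226 and 29363 reads in Chx, Harr and WT, or 48.3%, 2.73% and 31.0% of all reads in long 3′ UTRs. These reads were not spread over the 7396 nt: the segment of Gm15725, a processed pseudogene of 1090 nt annotated inside this 3′ UTR at chr16:37882542-37883631 on the same strand, held 40259, 1970 and 28953 of them. Outside it 397, 256 and 410 reads remained. Of the 7372 words of 25 bases in this 3′ UTR, 556 occur in Actb transcripts, which encode β-actin. The study's methods name both a TopHat alignment to transcripts that let a read align in many places, for the search for open reading frames in such libraries, and an Rsubread alignment to mm10 before Plastid counting, for its other footprint libraries. Which of them these tables were counted from, and whether reads with several alignments were kept, is not given in the sources used here, so reads from Actb and from this locus cannot be told apart.

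The same held for 3 other heavily read 3′ UTRs, whose embedded genes were looked up after the values were seen. The 3′ UTR of Tmem38b, a gene for an intracellular cation channel, had 1786, 1445 and 1600 reads in Chx, Harr and WT, and 1786, 1445 and 1594 of them lay in n-R5s185, an annotated 5S rRNA copy of 119 nt. That of Akr1c19 had 1534, 74 and 746 reads, of which 1534, 70 and 744 lay in Marcksl1-ps4, a processed pseudogene that shares words with Marcksl1. That of BC004004 had 1046, 75 and 1196 reads, of which 1045, 73 and 1192 lay in Gm10045, which shares words with the ribosomal protein gene Rpl21. In all 4 genes the embedded copy held at least 88.5% of the 3′ UTR reads in each library. In Akr1c19, BC004004 and Lrrc58 the RPM were lower in Harr than in Chx and WT, while those of Tmem38b were higher.

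Another annotated gene on the same strand overlapped 129 of the 7499 3′ UTRs. These 129 held 46870, 7000 and 35256 of the reads in Chx, Harr and WT. Without these 129, 7370 3′ UTRs remained, with 37376, 74542 and 59500 reads and a density of 0.326%, 3.30% and 0.632% of the CDS. Reads were then spread over many genes in all libraries: 50% of the reads came from 168 genes in Chx, from 282 in Harr and from 235 in WT, against 348, 307 and 333 genes for 50% of the CDS reads. The most read 3′ UTR was then Pkia in Chx with 3.23% and in WT with 1.98%, and Gad1 in Harr with 1.23%. Separately, 26 of the 7499 3′ UTRs, 22 of them of γ-protocadherin genes, consist of the same segment as another of them and repeat its count. Results on position, length, sequence features and correlations hold the 7370 3′ UTRs without an overlapping gene, other results hold all 7499 unless stated, and the pooled values are given both ways.

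**Figure D1:**
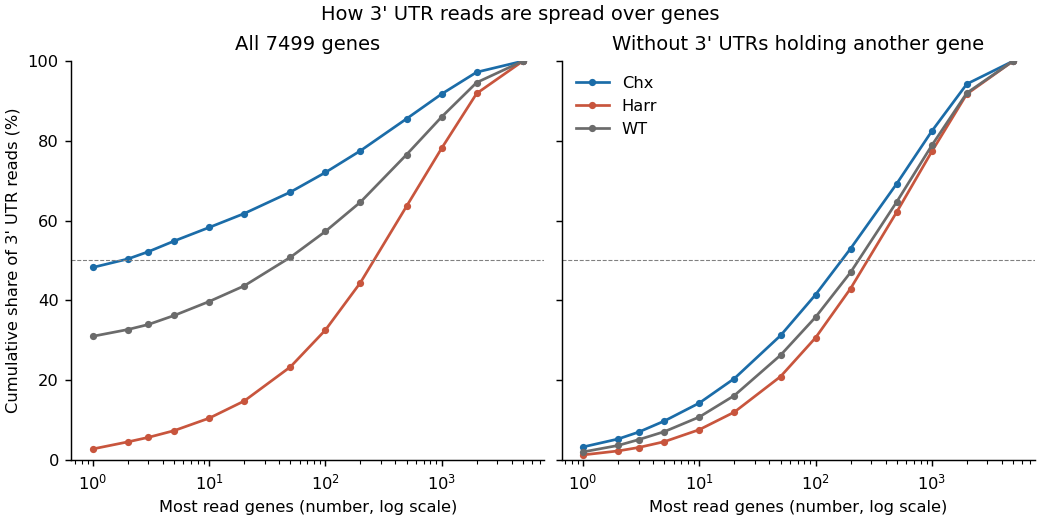
Cumulative share of the reads in long 3′ UTRs (vertical axis, %) held by the most read genes (horizontal axis, number of genes, log scale) in Chx, Harr and WT, for all 7499 genes on the left and for the 7370 without an overlapping annotated gene on the right. The dashed line marks 50%, which Chx reaches at 2 genes on the left and at 168 on the right.

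Pooled over all 7499 3′ UTRs, RPM were 3.54 times as high in Harr as in Chx, a log2 ratio of 1.83. Lrrc58 moved this value by more than 1.5 times: without it the log2 ratio was 2.74, and without the 129 overlapping 3′ UTRs it was 2.87, or 7.30-fold. For Harr against WT the log2 ratio was 1.41 over all, 1.91 without Lrrc58 and 1.96 without the overlapping 3′ UTRs. For Chx against WT it was −0.41, −0.83 and −0.91. In each way of pooling, Harr was highest and Chx lowest.

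The excess in Harr was spread over many genes. Among the 7370 3′ UTRs without an overlapping gene, RPM were higher in Harr than in Chx for 4081, lower for 430 and equal, at 0 reads in both, for 2859. With at least 20 reads in the 2 libraries together, 1211 of 1220 (99.3%) were higher in Harr. The direction was general: 89.3% of all genes tested were higher, and 99.1% of single-segment 3′ UTRs under 1000 nt free of overlap. The net difference was 6596 RPM. The 10 genes with the largest differences supplied 7.83% of the summed increases, the top 100 supplied 31.1%, and 276 genes were needed for 50%. Those 10 genes were Gad1, Atp1b1, Map1b, Hmgcs1, Serinc1, Dcx, Rtn3, Gpm6a, Sept7 and Stmn2. Most of them are abundant in neurons: Gad1 makes GABA, Atp1b1 is a subunit of the sodium pump, Map1b, Dcx and Stmn2 bind or regulate microtubules, Sept7 is a septin, and Gpm6a is a neuronal membrane glycoprotein.

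Gene by gene, the difference between Harr and Chx was nearly uniform in direction. Among 1266 3′ UTRs with at least 20 reads in Harr and Chx together, 1199 had at least 2-fold more RPM in Harr and 7 at least 2-fold fewer, where 78.9% and 3.44% of all genes tested were called. The median log2 ratio was 3.13. Against WT, 1272 of 1484 were at least 2-fold higher in Harr and 12 lower (70.1% and 3.96% of all genes), with a median of 2.06. Between Chx and WT the sign turned: 461 of 1013 were at least 2-fold lower in Chx and 10 higher (40% and 1.25% of all genes), with a median of −0.88.

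The level of these ratios depended on the scaling of the libraries. With reads of the 13 mitochondrially encoded CDSs as the scale, 79.9% of the 1266 3′ UTRs lay at least 2-fold above Chx in Harr and 0.790% below. With size factors over all 3′ UTR counts, which set the bulk of 3′ UTRs equal by construction, 39.2% were higher and 16.5% lower. The shares of all genes were then 35.4% and 32.5%. The medians of the long 3′ UTRs were 0.45 (Harr against Chx), 0.33 (Harr against WT) and 0.059 (Chx against WT). For Harr against WT the mitochondrial scale gave 59.7% higher and 1.48% lower, against 48.7% and 9.21% of all genes. Size factors gave 28.8% higher and 8.29% lower, against 24.5% and 23.1% of all genes. A scaling moves every gene alike, so under each one the median of the long 3′ UTRs lies, by construction, at the same distance from that of all genes, 0.41 above it in Harr against Chx, 0.31 above it in Harr against WT and 0.20 below it in Chx against WT.

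**Figure D2:**
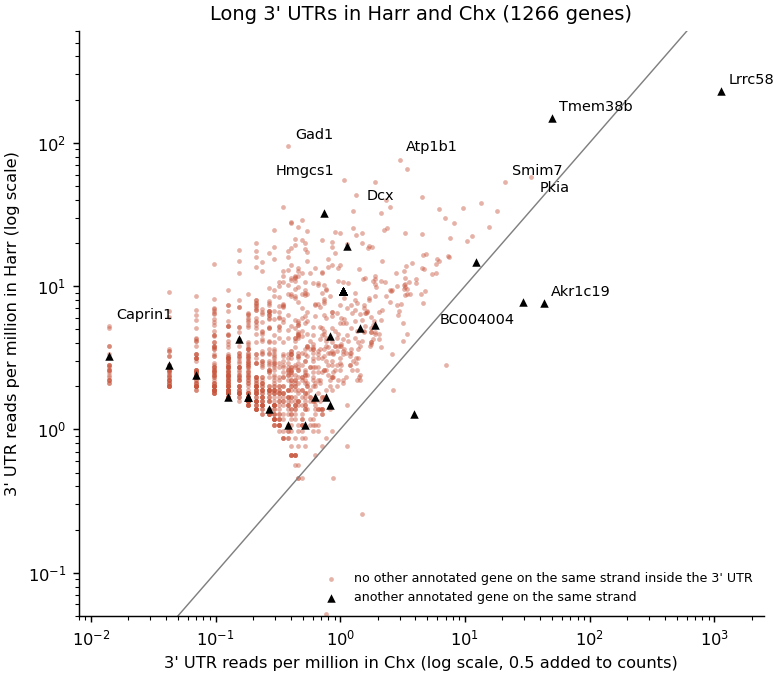
RPM in each long 3′ UTR in Chx (horizontal axis) and Harr (vertical axis), both on log scales with 0.5 added to the counts, for the 1266 genes with at least 20 reads in these libraries together; triangles mark 3′ UTRs that overlap another annotated gene on the same strand and the line marks equal values. Nearly all points lie above the line, and Lrrc58, Akr1c19 and BC004004 lie below it.

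Setting each 3′ UTR against the CDS of its own gene removes the scaling of the libraries, but the CDS reads also differed. The 7499 CDSs held 7997259, 1579243 and 6560078 reads in Chx, Harr and WT, against 84246, 81542 and 94756 in the 3′ UTRs. These counts include the difference in library size. Scaled to library size and length (RPKM), the CDSs stood at 17.0, 12.3 and 16.5 in Chx, Harr and WT. The 3′ UTRs stood at 0.121, 0.430 and 0.161. The log2 odds ratio of 3′ UTR against CDS reads had a median of 4.02 for Harr against Chx, and 1216 of 1254 genes were at least 2-fold higher and 4 lower, against 86.3% and 2.27% of all genes tested. For Harr against WT the median was 2.78, with 1383 of 1473 genes higher (83.8% of all) and 10 lower (2.68% of all). For Chx against WT it was −0.96, with 485 of 1001 genes lower (42.7% of all) and 8 higher (1.41% of all).

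Other kinds of 3′ UTR in the same libraries had other levels. Single-segment 3′ UTRs under 1000 nt and free of overlap were denser, at 0.909% of their CDS in Chx, 16.5% in Harr and 2.50% in WT, and their median log2 odds ratios were 4.95, 3.10 and −1.50 in the same order of comparisons (Harr to Chx, Harr to WT, Chx to WT). Long single segments that overlap a CDS or 5′ UTR had 1.39%, 4.79% and 1.82% of the CDS density and medians of 2.96, 2.16 and −0.63. In 3′ UTRs of several segments the densities were 11.0%, 17.2% and 11.3% and the medians 1.09, 1.05 and −0.20. The long free 3′ UTRs thus had the lowest density of these 4 classes in each library, and these differences have no test. Close to the length limit the order was not the same: 465 free 3′ UTRs of 1000 to 1099 nt had densities of 0.770%, 12.2% and 1.56%, and 518 of 900 to 999 nt, just outside it, had 0.449%, 7.75% and 1.07%.

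**Figure D3:**
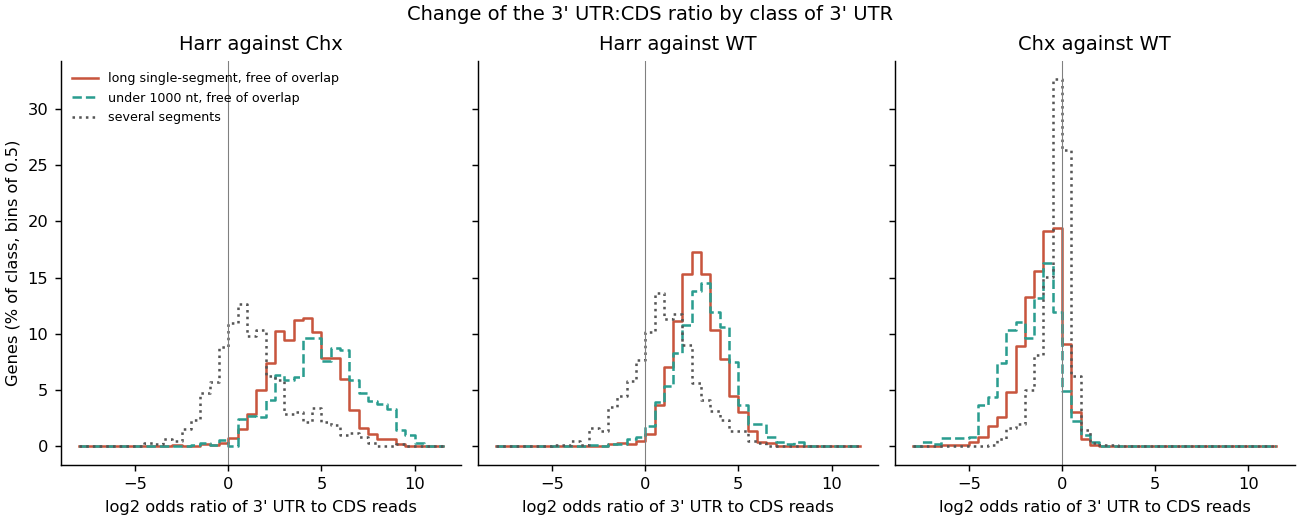
Distribution over genes of the log2 odds ratio of 3′ UTR to CDS reads (horizontal axis) for each pair of libraries, as the percentage of genes in bins of 0.5 (vertical axis), for long single-segment 3′ UTRs, single-segment 3′ UTRs under 1000 nt and 3′ UTRs of several segments. For long 3′ UTRs the medians are 4.02, 2.78 and −0.96 in the left, middle and right panel.

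Gad1, the glutamate decarboxylase of inhibitory neurons, had the highest 3′ UTR level in Harr of all genes without an embedded copy. Its 3′ UTR of 1218 nt held 13, 920 and 258 reads in Chx, Harr and WT, while its CDS held 23119, 3268 and 22413. In RPM the 3′ UTR stood at 0.364, 94.3 and 8.54, so that WT lay between the other libraries. In such cultures a gene used by some of the cells has a level in which their number and the signal of each cell cannot be told apart. The log2 odds ratio was 8.91 ± 0.40 (counting SE) for Harr against Chx and 4.61 ± 0.11 for Harr against WT. The density in the 3′ UTR was 41.2% of that of the CDS in Harr and 0.0823% in Chx.

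Atp1b1 had 108, 740 and 315 reads in Chx, Harr and WT, and a log2 odds ratio of 6.09 ± 0.15 for Harr against Chx. Hmgcs1, an early enzyme of cholesterol synthesis, had 38, 533 and 76 reads, with WT nearer to Chx than to Harr, and a log2 odds ratio of 6.37 ± 0.24. In Hmgcs1 all of these reads lay in the first 1604 of 1782 nt. Abat, which breaks down GABA, had 1, 65 and 17 reads in the 3 libraries, and its odds ratio for Harr against Chx was 541 with a counting interval of 93.0 to 21684. Samm50, a component of the mitochondrial outer membrane sorting machinery, had 3, 79 and 6 reads.

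Serinc1, Gpm6a and Atp6ap2 had the same order of libraries in RPM, but WT lay closer to Harr than in Gad1 or Atp1b1. Serinc1, a membrane protein named as a serine incorporator, held 68, 515 and 687 reads in Chx, Harr and WT, which is 1.90, 52.8 and 22.7 RPM. Gpm6a held 162, 405 and 965 reads, or 4.53, 41.5 and 31.9 RPM. Atp6ap2, an accessory subunit of the vacuolar proton pump, held 18, 195 and 352, or 0.504, 20.0 and 11.6 RPM. For these genes Chx was the library that stood apart: the log2 odds ratio of Chx against WT was −3.64 ± 0.18 for Serinc1, −2.65 ± 0.12 for Gpm6a and −4.46 ± 0.34 for Atp6ap2. Tubb5, a β-tubulin, had 7, 155 and 173 reads and a log2 odds ratio of −4.93 ± 0.54 for Chx against WT, with 8.4% of its 25-base words shared with other genes. Ubqln2, a ubiquitin-binding shuttle protein, had 3, 68 and 67 reads.

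The genes with the highest Harr against WT ratios had few reads in WT, which follows from picking them by that ratio. The read minimum was applied to Harr and WT together, so a gene could pass it through Harr alone. As a description, the reads of these genes in Chx were few as well. Vsnl1, a neuronal calcium sensor, had 14, 270 and 42 reads in Chx, Harr and WT, and a log2 odds ratio of 6.19 ± 0.24 for Harr against WT. Sept7 had 12, 348 and 34 reads and 5.77 ± 0.26. Cend1, a protein of neuronal cell cycle exit, had 19, 146 and 57 reads and 5.92 ± 0.24. Nbr1, an autophagy receptor, had 2, 66 and 4 reads, and 65 of the 66 in Harr lay in the first 254 of 1193 nt. Tpm3, with 12, 72 and 11 reads, also ranked here, but 80.4% of the 25-base words in its 3′ UTR occur in transcripts of other genes.

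Several genes with CDSs of 207 to 609 nt differed less between Harr and Chx than most, with RPM from 1.29-fold (Samd10) to 3.61-fold (Fam19a2) higher in Harr than in Chx. Pkia, an inhibitor peptide of protein kinase A, had 1208, 560 and 1179 reads in Chx, Harr and WT, or 33.8, 57.4 and 39.0 RPM. Its log2 odds ratios were −0.03 ± 0.08 for Harr against Chx and −0.61 ± 0.09 for Harr against WT. Its CDS held 3623, 1717 and 2368 reads, so that the 3′ UTR density was 2.35% of that of the CDS in Chx, 2.30% in Harr and, higher than both, 3.51% in WT. In Pkia 949, 348 and 979 of the reads fell into the first 323 of 3276 nt, so the Chx and WT signal, too, was concentrated behind the stop codon.

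Smim7, a small membrane protein, had 744, 517 and 861 reads in Chx, Harr and WT, against 728, 251 and 943 reads in its CDS. Gng7, a G protein γ subunit, had 645, 328 and 512 reads, and 431, 174 and 305 of these lay beyond the first 434 of 2992 nt. The TAFA family genes Fam19a2 and Fam19a5, whose products are secreted, had 344, 339 and 426 reads and 373, 201 and 384 reads. Srxn1, which repairs oxidized peroxiredoxins, had 260, 158 and 290, and Tusc2 had 195, 118 and 188. Their log2 odds ratios for Harr against Chx lay between 0.80 for Tusc2 and 2.53 for Gng7, all below the median of 4.02.

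Fam163b, with 123, 45 and 102 reads, and Samd10, with 92, 32 and 98, also lay near 0, with log2 odds ratios for Harr against Chx of 0.06 ± 0.27 and 0.31 ± 0.32. Of 470 genes without an overlapping gene and with at least 50 3′ UTR and 100 CDS reads in Harr and Chx together, 15 had a log2 odds ratio under 1 and 259 had one of at least 4. The 100 with the lowest ratios had a median CDS of 567 nt, the 100 with the highest one of 1174.5 nt, and all 470 one of 922.5 nt. In the lowest 100 the median 3′ UTR density was 2.03% of the CDS in Chx, 7.55% in Harr and 2.46% in WT, and in the highest 100 it was 0.0676%, 6.49% and 0.383%. By construction these groups differ in the ratio of Harr to Chx, and the read minimum was applied to both libraries together. Which library carries the difference is therefore no independent result. As a description, the median density relative to the CDS was similar in both groups in Harr and not in Chx. In median 3′ UTR RPKM the lowest 100 stood at 1.79 and the highest 100 at 5.14 in Harr, and their median CDS RPKM in Chx was 37.2 and 143.

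**Figure D4:**
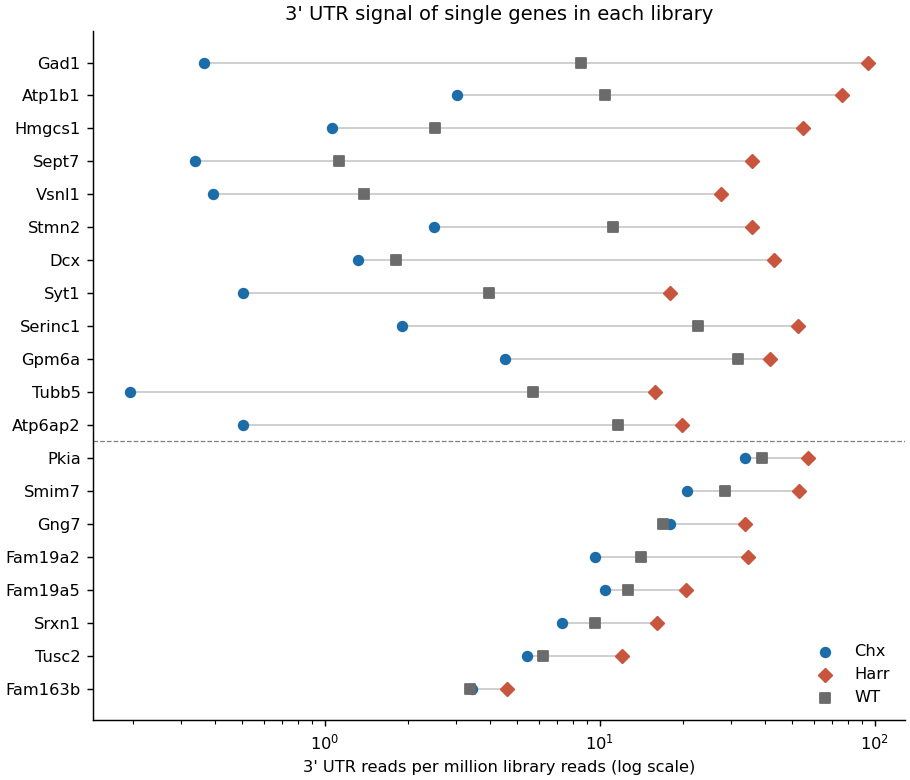
3′ UTR RPM (horizontal axis, log scale) of single genes in Chx, Harr and WT. Above the dashed line are 12 genes with far higher values in Harr than in Chx, such as Gad1 with 0.364 in Chx and 94.3 in Harr, and below it are 8 genes with smaller differences, such as Pkia with 33.8 in Chx and 57.4 in Harr.

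For Chx against WT, ratios well above 0 were rare. Among 364 genes without an overlapping gene and with at least 50 3′ UTR reads in the pair, the highest log2 odds ratios were those of Borcs7 with 0.88 ± 0.41 (33 reads in Chx, 27 in Harr, 22 in WT), Urm1 with 0.82 ± 0.23 (114, 40 and 77) and Oaz2, an ornithine decarboxylase antizyme, with 0.76 ± 0.20 (129, 86 and 92). None of the 364 reached 1, whereas 61 lay at −2 or lower. Arl15, a small GTPase, had 161, 130 and 89 reads. Tle3, a transcriptional corepressor, had 14, 23 and 61 reads, and 55 of its 61 reads in WT lay between 260 and 1121 nt behind the stop codon.

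Since the tables give 1 count per segment, apart from embedded genes, positions inside a 3′ UTR could be read where another transcript has a shorter 3′ UTR segment behind the same stop codon. This was the case for 2885 of the 7370 3′ UTRs without an overlapping gene. For 1017 of them such a segment ended at most 200 nt behind the stop codon (median 83 nt). It may end at the end of an mRNA or at a splice site. How far mRNAs without the distal part shape the density by distance was not tested. A footprint is counted where its 5′ end lies, so a ribosome on the stop codon itself counts in the CDS. In these 1017 genes the proximal piece made up 3.26% of the 3′ UTR sequence. It held 15.9% of the reads in Chx (901 of 5654), 51.9% in Harr (5317 of 10254) and 43.1% in WT (3718 of 8633). Per nucleotide the proximal piece was 5.62 times as dense as the rest in Chx, with an interval of 5.24 to 6.04. The ratio was 31.9 (30.7 to 33.2) in Harr and 22.4 (21.5 to 23.4) in WT.

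Chx differed most from the other libraries close to the stop codon. RPM in the proximal pieces were 21.6-fold higher in Harr than in Chx, against 3.80-fold in the distal remainder. Chx stood at 0.205 times WT in the proximal pieces and at 0.818 times WT in the remainder. For Harr against WT the gap was small, with 4.43-fold in the proximal pieces and 3.11-fold in the remainder. Of genes with at least 20 3′ UTR reads in a library, more than 50% of the reads lay in the proximal piece in 0 of 55 genes in Chx, 54 of 116 in Harr and 46 of 106 in WT.

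With pieces of at most 1000 nt sorted by how far their midpoint lay behind the stop codon, the density fell steadily in Harr and WT. Within 50 nt it was 50.8% of that of the genes' own CDS in Harr, 5.02% in WT and 0.938% in Chx. From 100 to 200 nt it was 19.9%, 3.32% and 1.67%, and from 400 to 800 nt it was 4.05%, 0.627% and 0.393%. Beyond 1600 nt it was 0.114%, 0.0336% and 0.0286%, from 19, 28 and 28 reads. Chx was highest from 100 to 200 nt, but without the 50 most read genes, Pkia among them, this class fell from 1.67% to 0.850%, and Chx then stood at 0.883% within 50 nt and at 0.852% from 50 to 100 nt. The log2 ratio of RPM between Harr and Chx was 4.91 within 50 nt and 1.71 between 800 and 1600 nt, and the classes hold different genes. For Harr against WT it ranged from 1.78 to 2.42 up to 1600 nt, and without the 50 most read genes it was highest from 100 to 200 nt (2.45) and not within 50 nt (2.23).

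**Figure D5:**
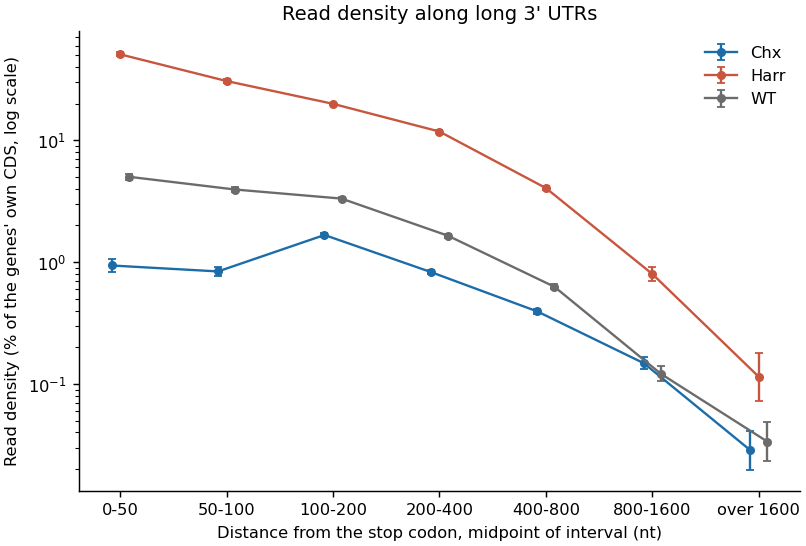
Read density in pieces of long 3′ UTRs (vertical axis, % of the density in the same genes' CDS, log scale) by the distance of the midpoint of the piece from the stop codon (horizontal axis, nt) in Chx, Harr and WT; bars are 95% counting intervals. Harr lies highest in every class, falling from 50.8% within 50 nt to 0.114% beyond 1600 nt, and Chx lies at or below 1.67% throughout.

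As a description, the values of the 8 genes with the most proximal reads in Harr follow. Since they were picked by those reads, they are examples and no support for the pattern. Dcx, a microtubule protein of migrating neurons, has a 3′ UTR of 7709 nt, of which the first 78 nt held 6 of 47, 388 of 421 and 30 of 55 reads in Chx, Harr and WT. Serbp1, an mRNA- and ribosome-binding protein, has one of 13777 nt, and its first 107 nt held 5 of 22 reads, 121 of 130 and 63 of 71. In Snx10, a sorting nexin, the first 110 of 1717 nt held 6 of 15, 106 of 111 and 34 of 45. In these 3 genes at least 92.2% of the Harr reads lay within 110 nt of the stop codon, and the share was lower in the other 5.

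Dpysl3, which takes part in axon growth, had 30 of 75, 252 of 313 and 86 of 130 reads in the first 105 of 3348 nt. Fscn1, an actin-bundling protein, had 12 of 35, 119 of 229 and 21 of 63 in the first 72 of 1087 nt. Mapt, which encodes the microtubule protein tau, had a nested end after only 32 nt, where 1 of 53, 106 of 227 and 35 of 105 reads lay in Chx, Harr and WT. Nsg1, a neuronal endosomal protein, had more proximal reads in WT than in Harr by count: the first 129 of 1480 nt held 17 of 118, 150 of 227 and 190 of 276 reads in Chx, Harr and WT. Gng2, another G protein γ subunit, was less concentrated, with 48 of 289, 105 of 268 and 63 of 253 reads in the first 152 of 3248 nt. Outside these 8, Rtn3, a reticulon of the endoplasmic reticulum, had 59 of 82, 371 of 390 and 365 of 377 reads in its first 287 of 1929 nt.

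The end of the CDS showed the same order of libraries. In 1307 genes whose last CDS segment was 15 to 100 nt long, the density of that segment relative to the gene's whole CDS was lowest in Chx with 79.0%, followed by WT with 120% and Harr with 203%.

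Among the 7370 3′ UTRs without an overlapping gene, the ratio of 3′ UTR to CDS reads varied less over classes of 3′ UTR length than the density did. In Harr, 3′ UTRs of 1000 to 1500 nt held 5.29% as many reads as their CDSs, those of 1500 to 2000 nt 5.48%, those of 2000 to 3000 nt 5.10%, those of 3000 to 5000 nt 3.90% and those of 5000 nt or more 4.96%. The density fell over these classes from 7.79% to 1.36% of the CDS. In Chx the read ratio ranged from 0.382% to 0.608%, and in WT from 0.832% to 1.10%, in the same classes.

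The more common sequence features separated these 3′ UTRs little. The median log2 odds ratio for Harr against Chx was 4.27 behind TAA (357 genes), 3.85 behind TAG (254) and 4.02 behind TGA (595). By the base after the stop codon it was 4.23 for A, 3.73 for C, 4.15 for G and 4.06 for T. The next stop codon in frame lay within 60 nt in 3926 of the 7327 3′ UTRs that had a sequence and no overlapping gene, and its median distance was 57 nt. The median log2 odds ratio was 4.08 where it came within 30 nt, 4.17 from 30 to 60 nt, 4.14 from 60 to 120 nt and 3.74 further on. The readthrough context TGACTA, a stop codon and the 3 bases behind it, was present in 24 3′ UTRs, and the few with enough reads had lower medians: 2.23 for Harr against Chx (3 genes) and 0.12 for Harr against WT (5 genes, of which 20% were at least 2-fold higher). Over all 24 the density was 0.360% of the CDS in Chx, 1.92% in Harr and 1.24% in WT, and the median for Chx against WT was −1.67 (4 genes). The polyadenylation signal AATAAA stood in the last 50 bases of 4418 3′ UTRs, with medians of 4.11 with it and 4.02 without. Across 1206 genes Spearman's rho of the log2 odds ratio was 0.21 with CDS length, −0.11 with 3′ UTR length and −0.15 with GC content when Harr was compared with Chx. Between Harr and WT (1420 genes) rho was −0.0057 with CDS length and −0.027 with GC content, and between Chx and WT (958 genes) it was −0.29 and 0.15. Within each comparison all points come from the same pair of libraries.

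The level of a 3′ UTR followed that of its CDS only loosely. Over genes with enough reads, Spearman's rho between 3′ UTR and CDS RPKM was 0.25 in Chx (733 genes), 0.50 in Harr (1577) and 0.45 in WT (1233), where both values come from the same library.

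The gene lists followed the general direction, against which their counts are to be read. For the 3′ UTR to CDS ratio, 97% of the long 3′ UTRs tested and 86.3% of all genes were at least 2-fold higher in Harr than in Chx. The shares were 93.9% and 83.8% for Harr against WT, and 48.5% and 42.7% were at least 2-fold lower in Chx against WT. Of 32 genes of the neuronal cytoskeleton and growth, 13 have a long free 3′ UTR and 12 had enough reads. All 12 were at least 2-fold higher in 3′ UTR to CDS ratio in Harr than in Chx. Their median log2 odds ratio was 5.17, against 4.02 over the long 3′ UTRs tested and 3.72 over all genes. For Harr against WT all 12 were higher as well (median 3.48 against 2.78 and 2.59). In Chx against WT 10 of 12 were lower (median −1.33 against −0.96 and −0.77). Stmn2 was highest for Harr against Chx with 6.64 ± 0.18 (89 reads in Chx, 349 in Harr, 339 in WT). Map1b, whose CDS was the most read of all these genes, had 121, 639 and 233 reads and 4.23 ± 0.14. Nefm, a neurofilament subunit, was lowest of the list with 2.00.

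Of 42 genes of synaptic proteins, 33 have a long free 3′ UTR, and all 18 with enough reads were higher in Harr than in Chx (median 4.51). Against WT 17 of 19 were higher in Harr (median 2.82), a share near that of all long 3′ UTRs, and 9 of 15 were lower in Chx than in WT. Syt1, the calcium sensor of synaptic vesicles, had 18, 176 and 120 reads in Chx, Harr and WT, and 6.34 ± 0.35 for Harr against Chx. Snap25, a SNARE of the presynaptic membrane, had 60, 185 and 227 reads, and the first 208 of 1285 nt held 42, 169 and 203 of them. Vamp2, the SNARE of the vesicle, had 101, 97 and 123 reads, and 3.86 ± 0.21.

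Of 20 mRNAs known to localise to dendrites, 13 have a long free 3′ UTR and 5 had enough reads, all higher in Harr than in Chx (median 4.68) and in WT (median 3.44). Bdnf, a neurotrophin, was lowest with 55, 71 and 60 reads and 2.43 ± 0.26. Cyfip2, a regulator of actin and of local translation, had 2, 23 and 6 reads. Of 22 immediate early genes 12 are included, and all 7 with enough reads were higher in Harr than in Chx (median 4.17). Nr4a3, a nuclear receptor, had 15, 187 and 36 reads and 5.60 ± 0.38, and Fosl2, a Fos family member, had 59, 179 and 77 and 3.85 ± 0.22.

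Transcription factors of cortical neurons had smaller ratios. Of 16 with a long free 3′ UTR, the 7 with enough reads were all higher in Harr than in Chx. Their median was 2.43, below the 4.02 over the long 3′ UTRs tested and the 3.72 over all genes. Pou3f3 had 36, 27 and 27 reads and 1.34 ± 0.37, Sox11 had 22, 19 and 16 and 2.03 ± 0.45, and Creb1 had 19, 23 and 14 and 2.76 ± 0.46. Their 3′ UTRs are among the longer ones, from 4537 nt in Pou3f3 to 7170 nt in Creb1. The CDSs of these 3 genes held at most 3533 reads in any library.

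Among RNA-binding proteins that act on 3′ UTRs, 6 of 7 with enough reads were higher in Harr than in Chx (median 4.35), a share near that of all genes. Caprin1, a stress granule protein, had 0, 51 and 22 reads in Chx, Harr and WT, so that, with the empty library set at 3 reads, its 3′ UTR to CDS ratio in Harr was at least 85.0-fold above that in Chx. Against WT, the ratio in Chx was at least 7.79-fold lower. Nova2, a neuronal splicing factor, was the exception with 21, 10 and 17 reads and 0.66 ± 0.54. The 7 with enough reads come from 20 that have a long free 3′ UTR.

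Genes of the termination machinery themselves had few reads. Etf1 and Gspt1, the release factors eRF1 and eRF3a, had 2, 23 and 11 reads and 3, 14 and 25 reads, and Abce1, the recycling factor, had 5, 25 and 23. Of 10 genes of ribosome recycling, rescue and mRNA surveillance 4 had enough reads, and all 4 were higher in Harr than in Chx (median 3.93). The same was so for 3 of 9 translation factors (median 3.61). Set against WT, 4 of 5 genes with enough reads were higher in Harr in each list (medians 3.13 and 2.60). Gspt1, with a log2 odds ratio of 0.98, fell short of 2-fold in both. These lists share Etf1 and Gspt1.

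Known readthrough genes, selenoproteins and glial genes gave little to read. Of 4 genes known for stop codon readthrough, only Mtch2 had enough reads, with 4 in Chx, 26 in Harr and 28 in WT, and its log2 odds ratio of 5.38 ± 0.74 for Harr against Chx rests on the 4 reads in Chx. Set against WT, its log2 odds ratio in Harr was 2.32, below the median of 2.78 of all long 3′ UTRs. Selenoproteins decode an in-frame stop codon through an element in the 3′ UTR. Of 4 selenoprotein genes the 2 with enough reads were at least 2-fold higher in Harr than in Chx: Selenoi had 16, 52 and 33 reads and Selenok 10, 19 and 23. Of 11 glial and stromal genes 1 had enough reads and was higher in Harr than in Chx. This was Slc1a2, the main astrocytic glutamate transporter, with 9, 61 and 27 reads, of which 5, 56 and 27 lay in the first 209 of 9250 nt.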

How the data were processed

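Ribosome footprints were deposited by the authors as tables of whole-number counts per transcript segment, each with the deposited coverage signal (count per nucleotide) and the deposited RPKM, written in Plastid format. Per the file headers, reads of 25 to 100 nt were counted at their 5′ end with offset 0 on mm10, once ribosomal reads and duplicates had been removed. The study's methods name TopHat, with multiple alignments per read allowed, for its search for open reading frames; they name Rsubread on mm10 ahead of Plastid counting for the study's other footprint libraries. Which alignment these tables come from is not given in the sources used here. Counts alone were used, and 99.4% of 142446 transcript identifiers were matched to GENCODE M21 (Python 3.11.15, numpy 2.4.6, pandas 2.3.3, scipy 1.17.1, numba 0.67.0). Segments were summed for the longest transcript of each gene.

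Ratios were log2 ratios of reads per 1000000 of the header total (RPM), or log2 odds ratios of 3′ UTR against CDS reads, with 0.5 added to each count. A gene was called at 2-fold, given at least 20 3′ UTR reads (and 20 CDS reads for odds) in both libraries together, with no test, since there is 1 library per treatment. Shared sequence was the share of 25-base words found in transcripts of other genes. The log2 ratios, the 2-fold calls and the pooled proximal to distal density ratio were tested on simulated counts. The choice of 3′ UTRs, the overlaps, the nested segments and the sequence features were not. Alternatives changed the scaling, minimum reads, pseudocount, minimum length and the genes included.

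Genes were named by rule: the 12 with the highest mean RPM, the 8 with the highest RPKM, the 6 highest and 4 lowest ratios of each pair with at least 50 3′ UTR and 100 CDS reads, up to 4 per gene list, and the 8 densest in WT relative to CDS. Others were named after their values were seen. The 3′ UTRs and the 11 gene lists were chosen with earlier results of these data known. Sample descriptions naming fractions of another experiment were not used. For 43 of the 7499 genes no transcript sequence was used.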

Additional observations from a re-analysis of the deposited data

How the results depend on the processing

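No paired analysis was possible because each treatment has 1 library. Of 186 values recomputed under alternatives, 108 stayed within an interval of the main value or, for numbers of genes, within 1.5 times the count. A further 77 moved and 1 changed sign. For median log2 ratios the interval was that of the median over genes, which does not measure counting error. For pooled values, densities and positions it was the counting interval.

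Scaling to mitochondrially encoded CDS reads gave median log2 ratios of RPM of 2.29 for Harr against Chx and 1.26 for Harr against WT, and scaling to all CDS reads gave 3.68 and 2.57. Size factors over all 3′ UTR counts gave 0.45 and 0.33, with 496 and 427 genes higher, and turned Chx against WT from −0.88 to 0.059, with 196 genes lower. That scaling centres the 3′ UTR counts of all genes on 0 by construction.

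With at least 1 read, 4002 of 4600 genes (87.0%) were higher in Harr when set against Chx. Against WT 3525 of 4736 were (74.4%, median 1.97), and 2277 of 4548 were lower in Chx than in WT (50.1%, median −1.01). With at least 50 reads the counts were 485 of 512, 516 of 612 (median 1.91) and 161 of 408 (median −0.72). With a length of at least 2000 nt they were 715 of 765, 764 of 903 and 271 of 606. A pseudocount of 5 gave medians of 2.87, 1.98 and −0.76. For the ratio to the CDS, at least 1 read gave medians of 3.66, 2.57 and −1.11 with 4131 of 4554, 3882 of 4685 and 2394 of 4506 genes. At least 50 reads gave 486 of 504, 574 of 605 and 175 of 401 genes, with −0.80 for Chx against WT. A pseudocount of 5 gave 3.65, 2.64 and −0.83. A length of at least 2000 nt gave 3.89 and 2.69 with 729 of 755, 842 of 894 and 278 of 596 genes. These counts changed with the number of genes tested. Shares over all genes were not computed for these settings.

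The pooled log2 ratios moved without Lrrc58 to 2.74, 1.91 and −0.83 and without 3′ UTRs that overlap another gene to 2.87, 1.96 and −0.91, both chosen after the data were seen. The density relative to the CDS in Chx, Harr and WT was 0.326%, 3.30% and 0.632% without overlapping genes, 0.370%, 3.41% and 0.676% without Lrrc58, 0.332%, 3.39% and 0.653% without 3′ UTRs with over 5% shared words, 0.272%, 3.03% and 0.542% without the 50 most read, 0.744%, 3.56% and 1.01% without CDS or 5′ UTR overlap on either strand, and 0.728%, 2.37% and 0.886% from 2000 nt up. The genes that supply 50% of the reads numbered 130 in Chx and 215 in WT without Lrrc58, and 168 and 235 without overlapping genes. The proximal to distal density ratio was 6.56, 30.6 and 25.2 without the 50 most read, and 2.68, 25.5 and 18.6 as the median over genes with at least 20 reads.

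Harr was the shallowest library: 0 reads there allow a level of up to 0.308 RPM.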
